A study of Mus musculus with 8 samples.

Results

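Small RNAs were sequenced from a mouse osteoblast line and from newborn mouse skull bone, and the miRNAs of the imprinted Igf2, H19 and Mest genes were followed through all 8 libraries. The members were chosen by name as both arms of the 3 hairpins encoded in these genes: mmu-miR-483-5p and mmu-miR-483-3p (Igf2), mmu-miR-675-5p and mmu-miR-675-3p (H19), and mmu-miR-335-5p and mmu-miR-335-3p (Mest). They are 6 of 1281 mature miRNAs in the deposited table, and each has 1 of its 1418 entries. MC3T3-E1 sc4 is a subclone of a pre-osteoblast line from C57BL/6 mouse calvaria. Its cells were sampled undifferentiated (day 0) and on days 6, 10, 17 and 24 of differentiation with 50 µg/ml ascorbic acid and 4 mM β-glycerol phosphate. There was 1 library per day, made from equal RNA of 3 pooled cultures, so the days have no replicates. The other 3 libraries are whole parietal and frontal bones (calvaria) of female C57/B6 mice 2 to 3 days old that carried Prrx1-Cre, a Cre driven by a promoter of limb and skull mesenchyme. These bones were digested briefly with collagenase and trypsin before freezing, and the labels do not say whether each library is a separate animal or a pool. No calvaria without Prrx1-Cre is among the libraries, and what else the mice carried is not given in the labels.

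An imprinted gene is read from the copy inherited from 1 parent only. Igf2, a fetal growth factor, and Mest are expressed from the paternal copy, while the neighbouring long noncoding RNA H19 is expressed from the maternal copy, and all of them are abundant in fetal and newborn mesodermal tissue and fall silent in many tissues after birth. A hairpin in a host transcript is cut into a 5p and a 3p arm, and the arm kept by Argonaute recognises targets mainly through its seed. miR-675 has been reported to restrain growth through Igf1r, and miR-335-5p to act on Dkk1, an inhibitor of Wnt signalling, in osteoblasts.

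The mature sequences show which arm is which and that no member shares a seed with another. Capitals mark the seed, bases 2 to 8, and all 6 members were matched in the RefSeq table (GRCm38.p6).
mmu-miR-483-5p: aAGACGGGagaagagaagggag
mmu-miR-483-3p: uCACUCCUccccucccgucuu
mmu-miR-675-5p: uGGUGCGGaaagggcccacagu
mmu-miR-675-3p: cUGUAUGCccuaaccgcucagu
mmu-miR-335-5p: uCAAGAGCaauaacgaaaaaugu
mmu-miR-335-3p: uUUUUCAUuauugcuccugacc
None of the 6 seeds occurs as the seed of another mature miRNA in that table. The miR-483 and miR-675 arms are rich in G and C (54.5% to 63.6% of bases), and the miR-335 arms are poor in them (30.4% for 5p and 36.4% for 3p). The longest stretch that any member shares with another of 1004 mouse hairpins is 9 or 10 bases. The deposited counts of all 6 members are exactly whole in every library.

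The hairpins show how the arms pair, with both mature arms in capitals.
Mir483: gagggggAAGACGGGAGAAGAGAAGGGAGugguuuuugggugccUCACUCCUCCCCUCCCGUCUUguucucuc
Mir675: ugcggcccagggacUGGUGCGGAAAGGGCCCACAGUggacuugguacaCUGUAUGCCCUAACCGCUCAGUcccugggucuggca
Mir335: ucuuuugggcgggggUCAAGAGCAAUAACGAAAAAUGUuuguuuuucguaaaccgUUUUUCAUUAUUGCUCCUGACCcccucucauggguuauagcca
Mir483 lies at chr7:142654924-142654996 on the minus strand (GRCm38, the same assembly as mm10). It is intronic in all 7 annotated Igf2 transcripts that span it, and the readthrough gene Gm49394 also spans it. Mir675 lies at chr7:142577064-142577147, also on the minus strand, 77776 bases from Mir483. It falls within an exon in 3 of the 4 H19 transcripts that span it. Mir335 lies at chr6:30741299-30741396 on the plus strand, in an intron of all 7 Mest transcripts that span it.

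Library totals were 2742368 to 4031962 counts in MC3T3 and 1183011 to 2023036 in calvaria. The day 0 library stood apart: its share of miR-21a-5p was 45.5% of counts, while the share was 11.2% to 20.1% at the other 4 days and 5.41% to 9.74% in calvaria. Its TMM factor, which rescales a library for such dominant miRNAs, was 0.694, against 0.953 to 1.21 in the other 7 libraries. Levels below are RPM (reads scaled to the library total) unless said otherwise. Intervals of single libraries are exact 95% Poisson intervals and cover counting error only, since no molecular identifiers separate copied reads from original molecules.

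The H19 and Igf2 miRNAs were present in all 3 calvaria libraries and absent or nearly absent from MC3T3 cells on every day. miR-675-5p had 29, 47 and 28 counts in calvaria 1, 2 and 3 (24.5, 23.2 and 20.8 RPM) and 0 in each MC3T3 library. miR-675-3p had 39, 50 and 18 counts (33.0, 24.7 and 13.4 RPM) and likewise 0 in each MC3T3 library. Both arms of the H19 hairpin were thus found only among the calvaria counts. The 3 counts that a total of 0 allows, over 16974864 MC3T3 counts in all, set a limit of 0.177 RPM. Against it the calvaria pool was at least 129-fold higher for miR-675-5p and at least 133-fold higher for miR-675-3p. In bulk RNA, fewer cells of a type and less RNA per cell cannot be told apart.

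miR-483-5p, from the Igf2 intron, had 233, 368 and 249 counts in calvaria (197, 182 and 185 RPM). In MC3T3 it had 0, 0, 1, 1 and 4 counts on days 0, 6, 10, 17 and 24. miR-483-3p had 477, 801 and 180 counts in calvaria (403, 396 and 134 RPM) and 0, 1, 0, 2 and 1 counts in MC3T3. For both arms, every calvaria library lay far above every MC3T3 library, and 4 of the 6 MC3T3 counts of miR-483-5p came from day 24 (1.46 RPM). Pooled over libraries, calvaria was 529-fold higher for miR-483-5p (95% interval 242 to 1444, from 850 against 6 counts), and 1330-fold without day 24 (367 to 10997, against 2 counts). For miR-483-3p it was 1360-fold higher (530 to 4998, from 1458 against 4 counts), and 2089-fold without day 17 (577 to 17263, against 2 counts). These pooled intervals are exact binomial intervals on summed counts. They cover counting error only and leave out the differences between libraries.

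The calvaria libraries differed among themselves by arm. miR-483-5p was nearly constant at 188 ± 7.89 RPM (SD, n = 3), a coefficient of variation of 4.19%. miR-483-3p stood at 311 ± 153 RPM with a coefficient of variation of 49.3%, and calvaria 3 was at 134 (115 to 155) beside 403 (368 to 441) and 396 (369 to 424) in calvaria 1 and 2. The miR-675 arms had means of 22.9 ± 1.86 RPM (5p) and 23.7 ± 9.83 RPM (3p, n = 3), and again the 3p arm was lowest in calvaria 3. Calvaria 3 also stood apart for some miRNAs of other loci. Beside calvaria 1 and 2 it was lower for miR-140-3p (46597 RPM against 86014 and 87452). It was higher for miR-126-3p (19091 against 8135 and 9725), and alike for miR-203-3p (55.83 against 52.41 and 56.35). A low level in calvaria 3 is thus not particular to these hairpins.

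**Figure D1:**
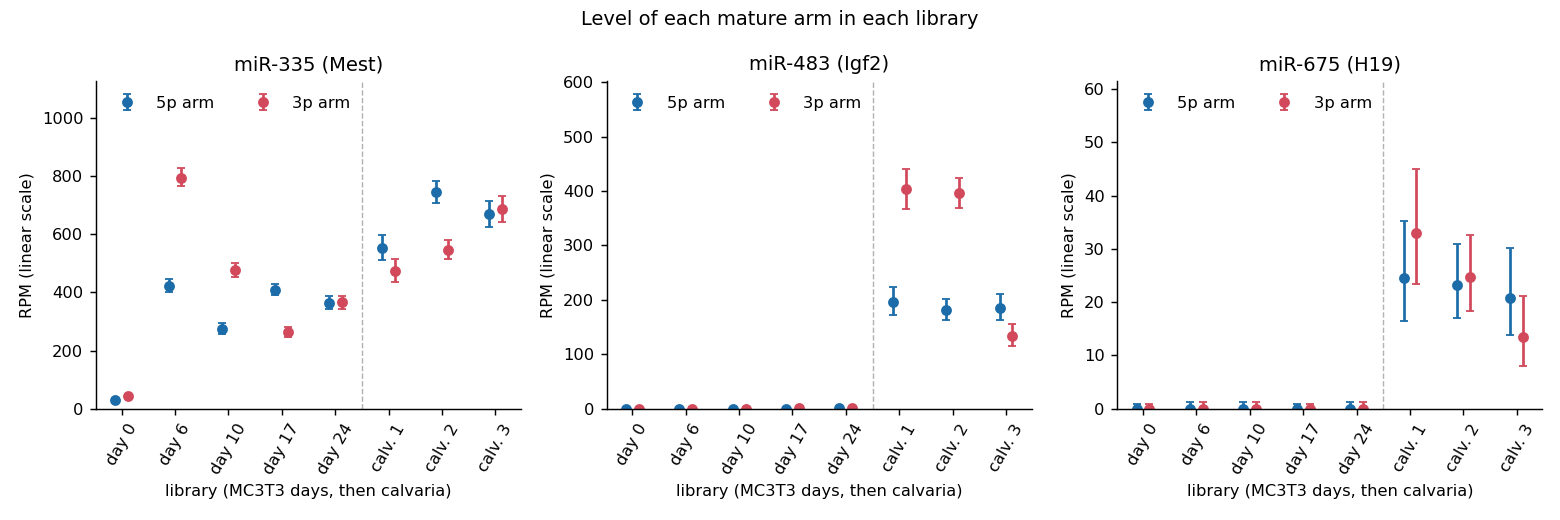
Level of the 5p and 3p arm of each hairpin in RPM on linear axes, 1 point per library with its exact 95% Poisson interval; the dashed line separates the 5 MC3T3 days from the 3 calvaria libraries (calv.). The miR-483 and miR-675 arms lie at or near 0 in MC3T3, while the miR-335 arms go from 30.3 and 42.2 RPM at day 0 to 424 and 795 RPM at day 6.

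The question of how the cultured line differs from bone was tested with the edgeR quasi-likelihood test over the whole table, 3 calvaria against 5 MC3T3 libraries. Of the 551 entries tested, 32.7% were called higher in calvaria and 33.8% lower, at a Benjamini-Hochberg adjusted p under 0.05. Of the 6 members 4 were called higher, namely both miR-483 and both miR-675 arms, and none lower. These 4 passed the filter of 10 counts in 3 libraries through calvaria alone, so their direction was fixed by the filter and their calls support nothing beyond the counts above. All p-values measure only the spread among these samples. That spread may be technical, and culture, age, tissue and Prrx1-Cre differ together between the materials and cannot be told apart. The digestion with collagenase and trypsin before freezing is described for the bones only and cannot be separated from them either.

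miR-335, from Mest, was the only hairpin of the 3 with substantial counts in MC3T3 cells, and its day 0 library was far below all others. miR-335-5p stood at 30.3 (25.1 to 36.1), 424, 275, 409 and 365 RPM on days 0, 6, 10, 17 and 24, from 122, 1337, 855, 1613 and 1001 counts. miR-335-3p stood at 42.2 (36.1 to 49.0), 795, 475, 264 and 365 RPM, from 170, 2509, 1476, 1039 and 1002 counts. Both arms were thus lowest at day 0. The 3p arm was highest at day 6, while the 5p arm had no clear peak: after TMM scaling it stood at 366, 404 and 400 CPM on days 6, 17 and 24. By abundance in its library, miR-335-5p went from rank 195 at day 0 to rank 99 at day 6, and miR-335-3p from rank 170 to rank 76.

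From day 0 to day 6 the RPM ratio was 14.0 for miR-335-5p (95% interval 11.6 to 17.0) and 18.9 for miR-335-3p (16.1 to 22.2). After TMM scaling, which offsets the large miR-21a-5p share at day 0, the steps were 8.49-fold and 11.5-fold. These were the fifth and the third largest increases among 377 mature miRNAs compared, of which 1.33% rose more than 8-fold and whose median log2 step was 0.10. From day 6 to day 10 both arms were lower, with RPM ratios of 0.650 (5p) and 0.598 (3p). The arms then parted: from day 10 to day 17 the ratio was 1.49 (1.37 to 1.62) for 5p and 0.555 (0.512 to 0.601) for 3p. From day 17 to day 24 it was 0.892 (0.823 to 0.965) for 5p and 1.39 (1.27 to 1.51) for 3p. After TMM scaling the steps from day 6 to day 10 were 0.756-fold (5p) and 0.695-fold (3p). Those from day 10 to day 17 were 1.46-fold and 0.546-fold, and those from day 17 to day 24 were 0.988-fold and 1.53-fold. The last fall of 5p in RPM thus nearly vanished with scaling. With 1 library per day, the intervals above hold no difference between cultures, and no step has a replicate.

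**Figure D2:**
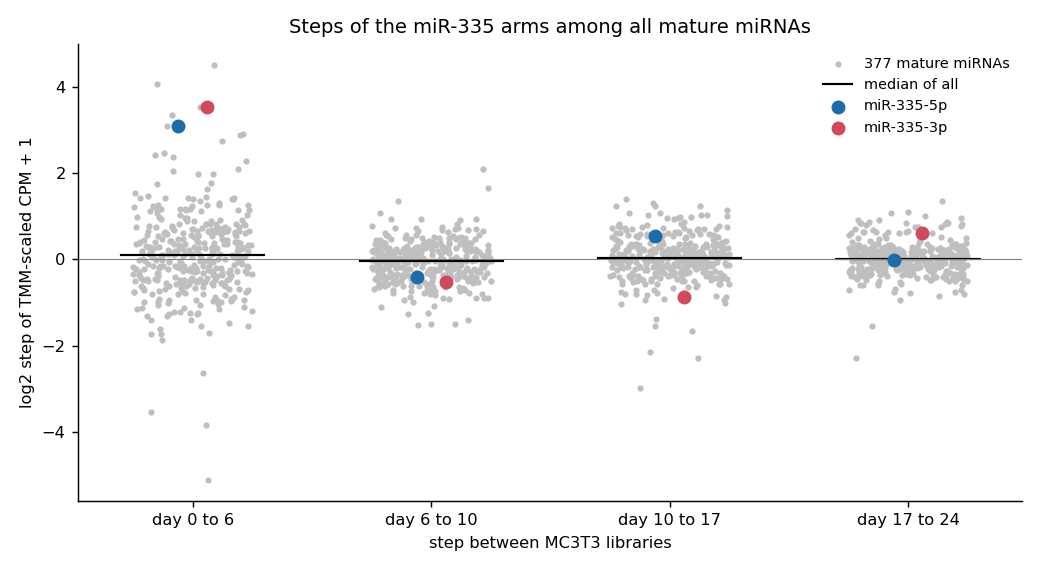
Log2 step in TMM-scaled CPM (plus 1) between successive MC3T3 libraries, 1 grey point for each of 377 mature miRNAs with the median as a black line and the miR-335 arms coloured. Both arms stand near the top from day 0 to 6 (3.09 for 5p and 3.52 for 3p), and from day 10 to 17 they lie on opposite sides of 0 (0.55 and -0.87).

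A linear trend over the 5 MC3T3 libraries was fitted to every entry with 10 counts in at least 2 of them, which left 2 of the 6 members, the miR-335 arms. Of 469 entries 1.28% were called higher with day and 1.71% lower, and neither miR-335 arm was among them. The fitted log2 change over 24 days was 1.98 ± 0.99 (SE; 95% interval -0.27 to 4.24) for miR-335-5p (adjusted p = 0.297, edgeR quasi-likelihood). For miR-335-3p it was 0.52 ± 1.24 (-2.32 to 3.36; adjusted p = 0.831, edgeR). The calls depended on day 0 and on the day scale. On a log2 (day + 1) scale miR-335-5p rose (log2 3.22 ± 0.59, adjusted p = 0.00253, edgeR), when 10.0% of entries were called higher. Without day 0, miR-335-3p fell over the other 4 days (adjusted p = 0.0179, edgeR), when 8.71% of entries were called lower. Its slope was log2 -1.16 ± 0.37 when scaled to 24 days, a span longer than the days then fitted. On the same 24-day scale miR-335-5p then had 0.36 (adjusted p = 0.599, edgeR). How far the unusual composition of the day 0 library enters these values was not tested.

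In calvaria miR-335 was among the 111 most abundant mature miRNAs of each library. miR-335-5p was at 552, 746 and 668 RPM in calvaria 1, 2 and 3, and at most 424 RPM in MC3T3. The share of all mature miRNAs that separate the materials in this way was not counted, so this does not set miR-335-5p apart. miR-335-3p was at 475, 547 and 686 RPM, within the MC3T3 range of 42.2 to 795. Means were 655 ± 97.6 RPM in calvaria (SD, n = 3) against 301 ± 162 in MC3T3 (n = 5) for 5p, and 570 ± 107 against 388 ± 278 for 3p.

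Against all MC3T3 days, miR-335-5p had a log2 difference of 1.09 ± 0.53 (SE; 95% interval -0.10 to 2.28) and an adjusted p of 0.0945, and miR-335-3p one of 0.55 ± 0.56 (-0.72 to 1.81) and 0.411, by the edgeR quasi-likelihood test. Neither passed the threshold of 0.05, with a MC3T3 spread that includes the change over days. Without day 0, miR-335-5p passed as higher in calvaria (log2 0.84, adjusted p = 0.00285, edgeR), when 37.8% of entries did. It also passed with DESeq2 size factors (1.39, adjusted p = 0.0445, edgeR) and in the DESeq2 Wald test (1.39, adjusted p = 0.0262), and with upper quartile factors it had 0.62 (0.326). Against days 17 and 24 only, both arms passed as higher in calvaria, when 40.4% of entries did. The differences were then 0.73 ± 0.19 for 5p (adjusted p = 0.0142) and 0.82 ± 0.26 for 3p (adjusted p = 0.0294, both edgeR).

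Within calvaria the 6 arms formed an order by level. The miR-335 arms came first, with ranges that overlap each other. miR-483-3p followed, below both miR-335 arms in every library, and its range (134 to 403 RPM) contained that of miR-483-5p (182 to 197). The miR-675 arms came last, and their ranges overlap. In MC3T3 cells the miR-335 arms were first on every day, and miR-483 and miR-675 could not be ordered at a handful of counts.

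Which arm of each hairpin was more abundant does not depend on the scaling of libraries, since both arms come from the same library. For miR-335 the 5p arm held 41.8% of both arms' counts at day 0 (exact binomial 95% interval 36.1 to 47.7), 34.8% at day 6 and 36.7% at day 10. It held 60.8% at day 17 (58.9 to 62.7) and 50.0% at day 24 (47.8 to 52.2). The 3p arm was thus the more abundant on the first 3 sampled days, the 5p arm at day 17, and neither at day 24 within counting error. In calvaria the 5p arm held 53.7%, 57.7% and 49.3%. The log2 ratio of 5p to 3p averaged 0.21 ± 0.24 over calvaria (SD, n = 3) and -0.31 ± 0.63 over MC3T3 libraries (n = 5). The difference of 0.52 did not pass the test (two-sided exact permutation test, p = 0.25, the only test of its kind made, with a smallest possible p of 0.0357). Against days 17 and 24 only, it was -0.11 (exact permutation p = 0.8).

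The log2 arm ratio of miR-335 ranged over 1.54 among the MC3T3 libraries. Of 99 hairpins with at least 50 pooled counts of each arm, 24.2% had a range as large, and the median range was 0.97. The more abundant arm switched between MC3T3 libraries in 10 of the 99 hairpins (10.1%), miR-335 among them.

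For miR-483 the 5p arm held 32.8% (29.4 to 36.4) and 31.5% (28.8 to 34.2) of counts in calvaria 1 and 2, and 58.0% (53.2 to 62.8) in calvaria 3. The more abundant arm therefore differed between calvaria libraries beyond counting error. For miR-675 the shares were 42.6% (30.7 to 55.2), 48.5% (38.2 to 58.8) and 60.9% (45.4 to 74.9), with intervals that overlap throughout. The log2 arm ratio of calvaria 3 minus the mean of calvaria 1 and 2 was 1.54 for miR-483, the largest increase among 83 hairpins measured in calvaria. It was 0.88 for miR-675, where 5 of the 83 had an increase as large, -0.37 for miR-335, and -0.03 at the median. This contrast singles out the library in which miR-483 differed, so the rank of miR-483 is no test. By the range over calvaria, whichever library differs, miR-483 had 1.59, and 3 of the 83 hairpins had a range as large. A switch of the more abundant arm between calvaria libraries was seen in 15 of the 83 hairpins (18.1%).

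**Figure D3:**
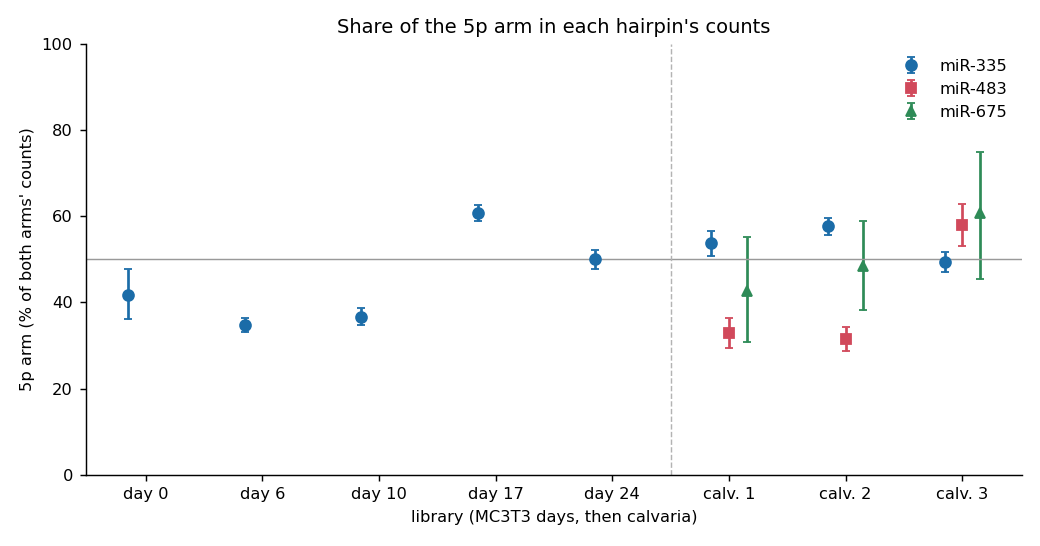
Share of the 5p arm in the counts of both arms (percent), 1 point per hairpin and library with its exact binomial 95% interval; miR-483 and miR-675 are shown for calvaria only, and the grey line marks 50%. The miR-335 share was 34.8% at day 6 and 60.8% at day 17, and the miR-483 share was 58.0% in calvaria 3 against 32.8% and 31.5% in calvaria 1 and 2.

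**Figure D4:**
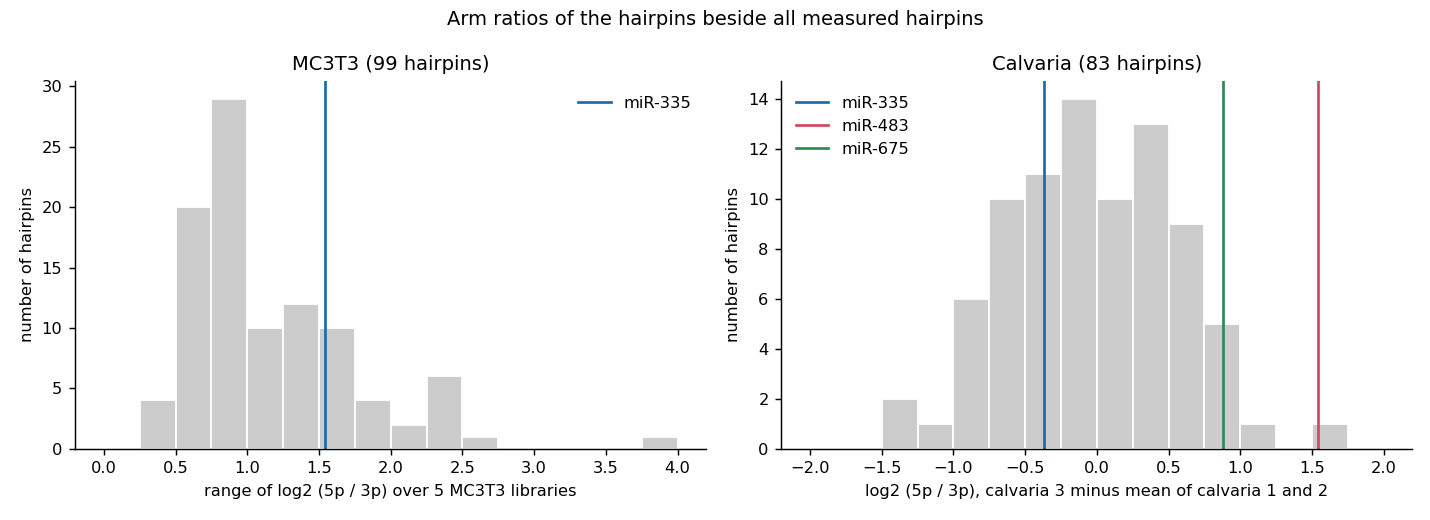
Number of hairpins by the range of log2 (5p / 3p) over the 5 MC3T3 libraries (left, 99 hairpins) and by the log2 (5p / 3p) of calvaria 3 minus the mean of calvaria 1 and 2 (right, 83 hairpins), with the members as coloured lines. miR-335 lies at 1.54 on the left beside a median of 0.97, and miR-483 at 1.54 stands at the right end of the calvaria distribution. The contrast on the right singles out the library in which miR-483 differed.

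The miRNAs most like each member in pattern were found among 471 mature miRNAs as those with the smallest root mean square (RMS) difference of centred log2 profiles over the 8 libraries. For both miR-335 arms the nearest was miR-199b-5p, at 0.36 (5p) and 0.49 (3p) log2 units. Its day 0 level was 423 RPM, its day 6 level 3769, and its calvaria levels 5116 to 6567. miR-322-3p and miR-503-3p (both 0.65) came next for 5p, and miR-322-3p (0.57) and miR-5121 (0.61) for 3p. The arms themselves lay 0.52 apart, so both arms were nearer to miR-199b-5p than to each other. Over the 5 MC3T3 libraries alone, miR-146b-5p was nearest to both (0.32 for 5p and 0.52 for 3p).

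The nearest patterns to the miR-483 and miR-675 arms were those of miRNAs far higher in calvaria than in MC3T3, where all but miR-5109 (55.8 to 157 RPM) were at or under 0.95 RPM. For miR-483-3p they were miR-433-3p (0.33), miR-136-5p (0.35) and miR-494-3p (0.44), all listed members of the imprinted Dlk1-Dio3 cluster. For miR-483-5p they were miR-676-3p (0.33), miR-5109 (0.38) and miR-431-5p (0.40). For miR-675-5p they were miR-496a-3p (0.03), miR-667-3p (0.15) and miR-377-3p (0.16), and for miR-675-3p miR-667-3p, miR-665-3p (both 0.22) and miR-496a-3p (0.25). Among the neighbours of the other arms, miR-431-5p, miR-377-3p and miR-665-3p are listed members of that cluster too. The list does not hold every miRNA of the cluster. Whether the unlisted neighbours, miR-496a-3p and miR-667-3p among them, belong to it was not checked, so they are not set apart from it. With 0 or near 0 counts in 5 of 8 libraries, likeness here rests on the calvaria level.

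Other imprinted miRNAs did not all share this pattern. The Dlk1-Dio3 cluster is a maternally expressed array on another chromosome, and its 39 listed miRNAs summed to 9.36 to 29.2 RPM in the MC3T3 libraries and 35589 to 51754 RPM in calvaria. Of these 36 passed the filter on counts summed per mature miRNA, and only 4 of them had 10 counts in any MC3T3 library, so for most the filter fixed the direction. All 36 were called higher in calvaria, and over all 471 mature miRNAs tested 35.5% were called higher and 28.7% lower. Their median log2 ratio of pooled RPM was 10.44 against 0.26 over all 471, with the 11 members at 0 in every MC3T3 library taken at the limit of 3 counts. The most abundant member, miR-127-3p, was at 12573, 14921 and 7629 RPM in calvaria 1, 2 and 3, and at 0 to 3.80 RPM in MC3T3.

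The imprinted miRNAs of the Gnas antisense transcript (miR-296 and miR-298) and miR-184, near Rasgrf1, summed to 707 to 1136 RPM in MC3T3 and 520 to 751 RPM in calvaria. The sums came mostly from miR-296 and miR-298-5p, which were expressed in both materials. miR-184-3p was at 0.25 RPM at day 0, at 34.2 to 40.8 on the later days, and at 4.23, 5.44 and 28.3 in calvaria 1, 2 and 3. The most abundant over the 8 libraries together, miR-298-5p, stood at 302 ± 76.8 RPM in calvaria (SD, n = 3) and 260 to 451 in MC3T3. Of the 4 tested 1 was called lower in calvaria, miR-296-3p (log2 -0.86, adjusted p = 0.0399, edgeR), and none higher, near the 28.7% of all mature miRNAs called lower. The median log2 difference was -0.71, against 0.06 over all. Of 8 miRNAs reported to be bound by H19 RNA, 5 were tested. The most abundant, let-7i-5p, had a log2 difference of 0.12 (adjusted p = 0.605, edgeR). Of the 5, let-7b-5p (-1.26, adjusted p = 0.000766) and miR-22-3p (-1.67, adjusted p = 0.000584, both edgeR) were called lower in calvaria and none higher, beside 28.7% lower over all, with a median of -0.26. With day, 1 Dlk1-Dio3 miRNA, 4 of the Gnas and Rasgrf1 list and 5 of the H19 list were tested, and none was called. Only 9 of all 391 mature miRNAs tested with day were called, so this absence sets the lists apart from nothing.

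Calvaria is a tissue of several cell types, and the summed level of several marker lists differed between the materials. The calls below stand beside 35.5% higher and 28.7% lower among all mature miRNAs. Only 1 of the 2 endothelial, 3 of the 8 blood cell and 2 of the 7 epithelial miRNAs had 10 counts in any MC3T3 library. For the tested members without them the filter fixed the direction, so those calls add nothing to the levels given. The 2 endothelial miRNAs (both arms of miR-126) summed to 6.20 to 19.01 RPM in MC3T3 and 9028 to 20323 in calvaria, and both were called higher. The 8 blood cell miRNAs summed to 73.7 to 114 and 315 to 465 RPM, with 6 called higher and 1 lower. The 4 cartilage miRNAs summed to 18218 to 28775 and 61235 to 111611 RPM, all 4 higher, and the 7 epithelial miRNAs to 3.23 to 12.4 and 73.6 to 82.0 RPM, with 2 of 2 tested higher. Striated muscle miRNAs (6 listed) summed to 213 to 574 and 283 to 642 RPM, with 2 of 4 tested higher. Those of the nervous system (5 of 6 in the table) summed to 329 to 460 and 603 to 685 RPM, with 0 of 2 tested called, and miR-124-3p and miR-137-3p were at 0 in every MC3T3 library and at most 0.99 RPM in calvaria. The 6 mesenchymal miRNAs were abundant in both materials, at 300231 to 585480 RPM in MC3T3 and 186000 to 243304 in calvaria, with 1 called higher and 3 lower. By their most abundant members, miR-126-3p was at 12317 ± 5920 RPM in calvaria (SD, n = 3) and 5.47 to 17.4 in MC3T3, miR-140-3p of cartilage at 73355 ± 23184 and 14511 to 21109, and miR-203-3p of epithelium at 54.9 ± 2.14 and 0.64 to 6.93. The ranges of both materials met for miR-206-3p of muscle (112 ± 82.0 and 104 to 556) and miR-486-5p of blood cells (53.1 ± 5.98 and 36.5 to 107), the 1 blood cell miRNA called lower. The blood cell miRNAs called higher include miR-451a, at 124 ± 43.1 RPM in calvaria and at most 0.99 in MC3T3. With 8 MC3T3 counts in all, its direction was fixed by the filter, and miR-486-5p of the same list went the other way. Muscle miR-1a-3p, at 275 ± 93.9 and 16.1 to 88.1, and miR-133a-3p were called higher too (log2 1.99 and 2.99). The muscle list was mixed, since miR-206-3p (log2 -1.33) and miR-499-5p (log2 -2.02) were fitted lower in calvaria and not called. miR-128-3p of the nervous system was at 561 ± 41.0 RPM in calvaria and 272 to 446 in MC3T3. The part of these cell types in the miR-483, miR-675 and miR-335 differences was not tested. The mRNA markers that define osteoblasts are not measured in small RNA libraries, so the labelled cell types were checked against miRNAs only.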

How the data were processed

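The authors deposited estimated counts for each mature arm of each precursor, and RPM values. Recomputing RPM from the deposited counts and library totals gave the same values to within 0.0127 RPM. The submitters' processing notes name cutadapt 0.9.5, Bowtie 0.12.7 and mm10, in no order. Not given in the sources used here are the miRBase release and the program that counted. MC3T3 column names hold a day 3 lower than the titles do, and the 4 later names carry the mark veh, whose meaning is likewise not given. Days follow the titles. The labels name no batch.

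Expected counts were rounded to whole numbers and tested per entry with the edgeR quasi-likelihood test (edgeR 4.0.16, R 4.3.3), TMM factors and Benjamini-Hochberg adjustment over all entries tested, at a threshold of 0.05. For calvaria against MC3T3 an entry needed 10 counts in 3 or more of the 8 libraries, and for the day trend (3 residual degrees of freedom) in 2 or more of the 5 MC3T3 libraries. A fitted fold against libraries at 0 depends on the prior count and is not given. Arm ratios used log2 with a pseudocount of 0.5 and were tested only where both arms together had 10 counts in every library. Lists and nearest patterns used counts summed per mature miRNA. The scripts were tested on simulated data. Alternatives changed the scaling, the filter, the libraries, the day scale or the tool (DESeq2 1.42.0, whose adjusted p stays NA where it gives none, or limma 3.58.1 on log2 RPM). Leaving each library out of the pooled ratios of miR-483 was added after seeing the data. Named are the 6 members, the 3 miRNAs nearest to each, and the most abundant member of each list by mean RPM over the 8 libraries. miR-184-3p, miR-296-3p, let-7b-5p, miR-22-3p, miR-124-3p, miR-137-3p, miR-451a, miR-1a-3p, miR-133a-3p and miR-499-5p were named after their values were seen. The members and lists were chosen with earlier results of these data known. Genes come from the GENCODE M21 annotation of GRCm38, and sequences from RefSeq.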

Additional observations from a re-analysis of the deposited data

Results flagged for a closer look

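The day 0 library was far from the other 4 MC3T3 libraries for miR-335-5p. On the log2 scale of TMM-scaled CPM, its gap to the nearest library took up 0.831 of the whole range, above the critical value of 0.71 for 5 samples. In RPM the same gap was 0.623 of the range and did not pass, nor did miR-335-3p on the log2 scale (0.603). Neither did miR-335-3p in RPM (0.425) nor the log2 arm ratio of miR-335 (0.412). The critical value is meant for samples of 1 group, while these libraries are 5 different days. A chance rate therefore cannot be given for this gap, and a change between days cannot be told apart from an outlying library.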

How the results depend on the processing

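The calls of the miR-483 and miR-675 arms were fixed by the filter and say nothing of stability. The number of entries called in calvaria against MC3T3, 366, was 172 with a filter of 100 counts and 298 to 389 when 1 library was left out. The split of higher and lower calls, 180 and 186, was 143 and 251 with upper quartile factors, 216 and 128 with DESeq2 size factors, 222 and 109 in the DESeq2 Wald test, and 184 and 123 or 181 and 117 without calvaria 1 or 2. The median log2 difference of all entries moved from -0.13 to -0.61 with upper quartile factors and to 0.18 with DESeq2 size factors. Of entries with a day trend there were 14 (6 higher, 8 lower; 50 and 53 at an unadjusted p under 0.05). That count became 34 in the DESeq2 Wald test (20 and 14), 34 without a filter, 4 with a filter of 100, 9 with summed counts, 7 with limma and a pseudocount of 1 (5 and 2), 103 on the log2 (day + 1) scale, and 3 (without day 6) to 75 (without day 0) when 1 library was left out. The day trend of miR-335-3p, as a slope scaled to 24 days, reversed from 0.52 to -1.16 without day 0 (up to 1.94 without day 6). The arm ratio difference of miR-335 reversed from 0.52 to -0.11 against days 17 and 24 only, and leaving out 1 library gave 0.37 to 0.75. The cause was not tested. By Pearson correlation 5 of the 18 nearest miRNAs over 8 libraries were the same, among them miR-199b-5p for both miR-335 arms, and 0 of 6 over the MC3T3 libraries. Arm ratios of miR-483 and miR-675 could not be tested between materials, with under 10 counts in MC3T3. Counts limit miR-675 most, with 18 to 50 per arm and calvaria library. No paired analysis was possible because the groups share no replicate numbers that pair libraries: each day has 1 library and calvaria has no day.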
